A study of Mus musculus with 24 samples.

Results

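The response of mouse liver to TCPOBOP was measured by setting the arrays labelled as wild type on TCPOBOP against those labelled as wild type on corn oil. Both groups held 2 mice, so 4 of the 24 arrays of the series make up the comparison. The sources give all mice as female, of a mixed C57BL/6x129Sv background, of an age the labels do not state. Injections were intraperitoneal, at 24 h intervals over 3 days. The TCPOBOP mice received 3 mg/kg once, on day 1, and corn oil on days 2 and 3, whereas the controls received corn oil throughout. Livers were taken 6 h after the last injection, and RNA of each mouse was hybridised to 1 Affymetrix array. For comparison, the same 2 treatments were given to knockout mice that lack mouse CAR and to mice of that knockout background with a human CAR transgene driven by the albumin promoter. Another wild-type group received phenobarbital at 100 mg/kg per day. Knockout and human CAR mice were also given phenobarbital, and mice of all 3 genotypes were given CITCO at 30 mg/kg per day. The arrays of these further groups enter the fitted model and its estimate of the spread, but the groups are not compared below.

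CAR is the constitutive androstane receptor, a nuclear receptor and the product of Nr1i3, that sits in the cytoplasm of hepatocytes and moves to the nucleus when it is activated. There it pairs with RXR and binds DNA near genes for drug oxidation, conjugation and transport. TCPOBOP is a potent ligand of the mouse receptor and a classical liver mitogen in mice, which makes the liver grow without prior injury.

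Values are log2 expression, so that a difference of 1 is a doubling, and they ran from 2.03 to 14.1. Array medians lay between 5.41 and 5.51. A probe set was called dim on an array when it lay below that array's 40th percentile, at 4.93 to 5.08. Albumin and 10 other hepatocyte genes averaged 11.39 to 11.63 on the wild-type corn oil arrays and 11.18 to 11.31 on the TCPOBOP arrays. The tissue is thus hepatocyte-rich in both groups. Nr1i3 itself lay at 7.58 and 7.37 on corn oil and at 7.03 and 6.84 on TCPOBOP, and its log2 change of -0.54 did not pass the test (limma, Benjamini-Hochberg adjusted p = 0.115). Nothing in the sources says whether mice with the same replicate number share a litter or day, and p-values measure only the spread between these single-mouse samples. In whole liver, fewer cells of a type and less RNA per cell cannot be told apart.

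After TCPOBOP 306 genes were higher and 257 lower in wild-type liver, out of 9167 tested (limma over all 24 arrays, adjusted p below 0.05 by Benjamini-Hochberg). That is 6.14% of the genes tested in all, 3.34% higher and 2.8% lower, and 1845 genes had an unadjusted p below 0.05. The rises and falls were of like typical size: the median rise was 1.64-fold and the median fall 1.58-fold. They differed in their extremes, since 98 rises (1.07% of genes tested) but 50 falls (0.545%) were at least 2-fold, and 20 rises but 8 falls at least 4-fold. They also differed in where they started. Probe sets of genes that fell lay at a median of 8.66 on corn oil and those of genes that rose at 6.06, against 6.40 for all genes tested, and such levels depend on the probes as well as on the transcripts. Of the rises, 51 were dim on both corn oil arrays (16.7%, against 4.67% of all genes tested), and 23 entered the test only through the TCPOBOP arrays. Changes of such genes are compressed by the background of the array.

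**Figure D1:**
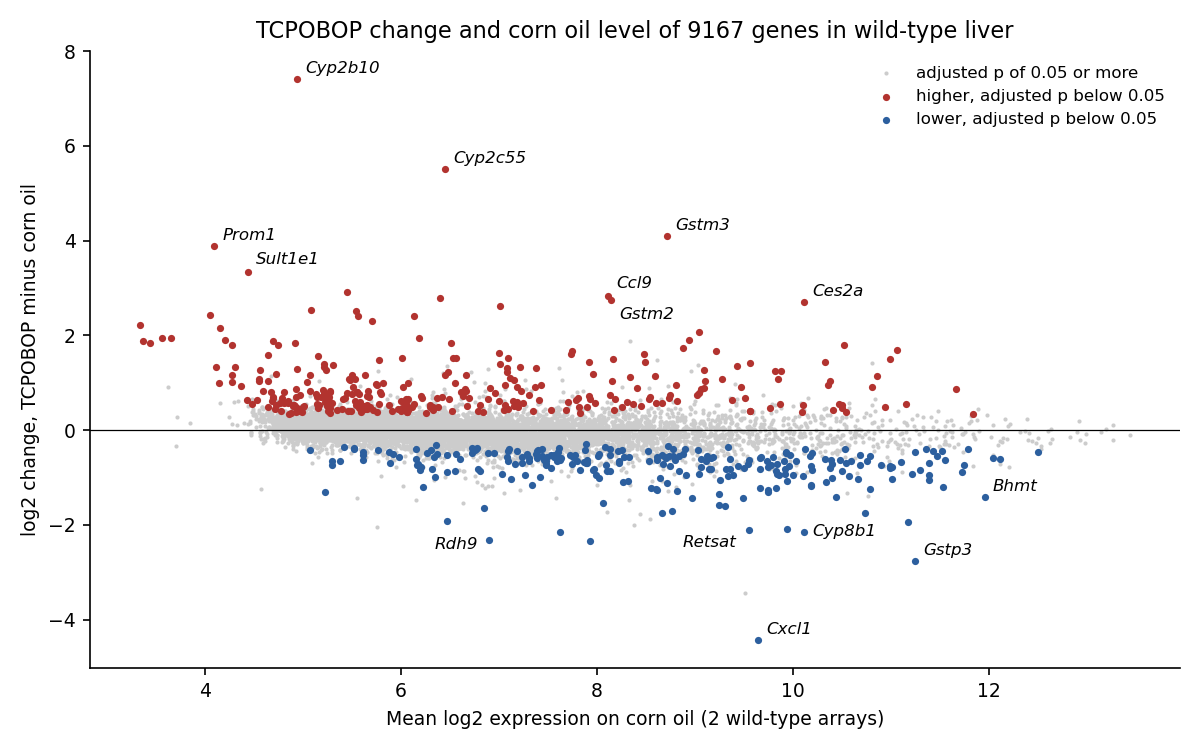
Log2 change in wild-type liver (TCPOBOP minus corn oil, vertical axis) against the mean log2 level on corn oil (horizontal axis) for the 9167 genes tested, with 306 higher genes in red, 257 lower genes in blue and the others in grey. Rises spread over low and middle levels and reach 7.42 for Cyp2b10, while falls cluster at high levels, with medians of 6.06 and 8.66.

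The number of calls rested on all 4 arrays. It was 265 without TCPOBOP mouse 2, 267 without corn oil mouse 2, 297 without corn oil mouse 1 and 315 without TCPOBOP mouse 1. In every one of these fits 110 of the rises and 55 of the falls were called, and "held in all 4 fits" below refers to them. Genes named below with no word on these fits did not all hold in them. The SD between the 2 mice of a group had a median over genes of 0.0952 on corn oil and 0.0948 on TCPOBOP, so neither group was the more scattered.

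Cyp2b10, the P450 that is the standard readout of CAR, lay at 4.66 and 5.22 on corn oil and at 12.24 and 12.48 on TCPOBOP. Its level thus went from the background of the array to near the top of its range, a fitted rise of 171-fold (log2 change 7.42, SE 0.38, limma adjusted p = 9.69e-09). Its corn oil values lie at the dim limit, so the size of this fold is uncertain, and its 2 other probe sets gave log2 changes of 6.24 and 7.60. Cyp2c55, another P450, lay at 6.36 and 6.54 on corn oil and at 11.98 and 11.94 on TCPOBOP, and rose 45.6-fold (SE 0.44, adjusted p = 5.81e-07). Gstm3, a glutathione transferase, was well expressed without the ligand, at 8.72 and 8.71, and reached 12.78 and 12.85. That is a 17.1-fold rise (SE 0.36, adjusted p = 1.51e-06). Birc5, the survivin subunit of the chromosomal passenger complex, lay at 3.65 in both corn oil mice and at 5.54 and 5.64 in the TCPOBOP mice. It was dim on corn oil and clearly above the dim limit on TCPOBOP, and rose 3.83-fold (SE 0.12, adjusted p = 4.23e-08). The groups did not overlap for any of these genes, and all 4 held in all 4 fits. With 2 mice a group such a gap is common: of all genes tested, 27.2% had both TCPOBOP arrays above both corn oil arrays and 27.0% below, so it is given below as a description and not as support.

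**Figure D2:**
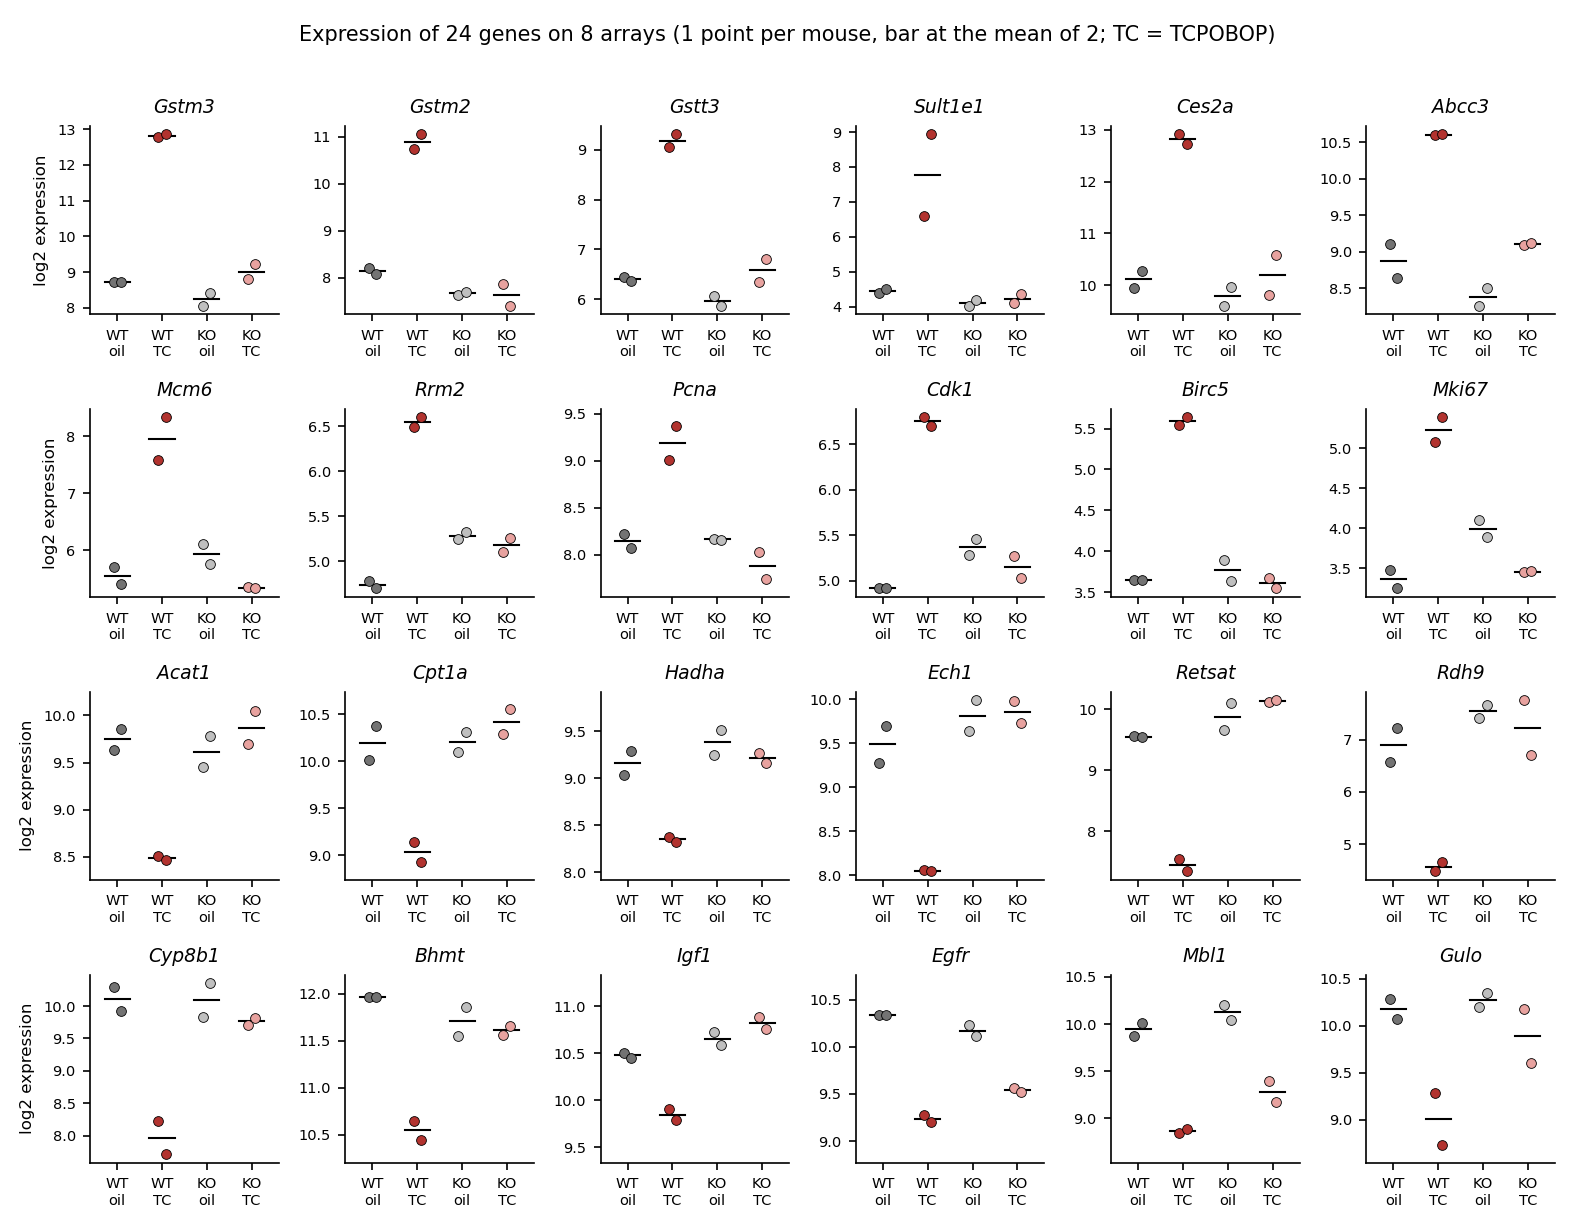
Log2 level of 24 genes on the 8 arrays of wild-type and knockout mice on corn oil or TCPOBOP, with 1 point per mouse and a bar at the mean of each pair. In the wild-type columns the TCPOBOP points of Gstm3 lie far above the corn oil points. Its log2 change is 4.10 there and 0.77 in knockout.

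Glutathione transferases, which join glutathione to electrophiles, mostly rose where they changed. Of 21 on the array, 20 passed the filter on dim values, 6 rose and 1 fell, and all 6 rises held in all 4 fits. For the lists below, too, the first number counts genes on the array. Only those that passed the filter were tested and could be called. Besides Gstm3 they were Gstt3 (6.90-fold), Gstm2 (6.71-fold), Gstm1 (3.22-fold), Gsta4 (3.20-fold) and Gstt1 (2.37-fold). Gstm2 went from 8.21 and 8.08 to 10.74 and 11.05 (log2 change 2.75, SE 0.31, limma adjusted p = 3.27e-05). Gstm1, also of the mu class, had a corn oil mean of 11.06 and reached 12.74 and 12.76. The list as a whole had a median change of 0.23, against 0.03 over all 12393 genes. The pi-class gene Gstp3 went the other way, but its mice differed widely: 11.67 and 10.83 on corn oil, 6.81 and 10.14 on TCPOBOP. Its log2 change of -2.77 (SE 0.61, adjusted p = 0.0112) ran from -4.44 to -1.11 when 1 array was left out, and the call was lost in 1 of those 4 fits.

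The enzymes and cofactor suppliers of the other conjugation routes rose in part. Of 17 sulfation and methylation genes 14 passed the filter, 1 of these only through the TCPOBOP arrays, and 5 rose and 0 fell. They were Sult1e1, the oestrogen sulfotransferase, Sult1d1 and Sult1c2, Papss2, which makes the sulfate donor PAPS, and the indole methyltransferase Inmt. Sult1e1 went from 4.38 and 4.49, dim on both corn oil arrays, to 6.60 and 8.93. Both TCPOBOP mice were above both controls, but they differed from each other by more than for most genes, and the 10.1-fold rise (log2 change 3.33, SE 0.46, limma adjusted p = 0.000235) ran from 2.16 to 4.50 on the log2 scale when 1 array was left out. Inmt rose 3.75-fold and Papss2 3.06-fold. Without TCPOBOP mouse 2 the 5 rises were 3. Of 10 glucuronidation genes 2 rose and 2 fell. Ugt2b34 rose 2.72-fold, from 10.44 and 10.23 to 11.85 and 11.70, and Ugdh, which makes the sugar donor UDP-glucuronate, rose 1.85-fold with a call in 2 of the 4 fits. The UGT3A enzymes, which use other sugar donors, fell: Ugt3a2 went from 10.85 and 10.73 to 9.75 and 9.35, and Ugt3a1 from 8.71 and 8.50 to 7.62 and 7.12, both by 1.24 on the log2 scale.

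Hydrolases and oxidoreductases moved in both directions, with 7 of 38 higher and 2 lower. The carboxylesterase Ces2a was already abundant at 9.94 and 10.28 and reached 12.91 and 12.72, a 6.52-fold rise (SE 0.20, limma adjusted p = 1.98e-07). Cbr1, a carbonyl reductase, rose 2.72-fold, Aldh1a7 2.39-fold and the microsomal epoxide hydrolase Ephx1 2.10-fold. The aldehyde oxidase Aox3 fell 2.48-fold and the soluble epoxide hydrolase Ephx2 fell 1.83-fold, so the 2 epoxide hydrolases went opposite ways. The call of Ephx2 did not hold in all 4 fits. Among drug-metabolising P450s 9 of 29 rose and 1 fell, with a list median of 0.54, but without TCPOBOP mouse 2 the counts were 5 and 0. Of the 29 P450s 26 passed the filter, 1 of these only through the TCPOBOP arrays. The microsomal partner of P450s, cytochrome b5 or Cyb5a, rose 1.87-fold from 10.82 and 10.80 to 11.72 on both TCPOBOP arrays. Of 16 genes for glutathione synthesis and other NRF2 targets, 2 rose: Ephx1, which is in both lists, and Srxn1, called in 2 of the 4 fits.

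Transport genes moved in both directions. Abcc3, which pumps conjugates from hepatocytes into blood, rose 3.32-fold, from 9.11 and 8.64 to 10.61 on both TCPOBOP arrays (limma adjusted p = 9.06e-07). Abcb4, the canalicular phospholipid flippase, fell 1.97-fold, but not without TCPOBOP mouse 2 or corn oil mouse 2. These were the 2 calls among 15 efflux pumps, of which 12 were tested. Among 14 uptake transporters, 13 of them tested, 0 rose and 2 fell, the organic anion carriers Slco1a1 (10.12 and 9.76 on corn oil, 8.36 and 7.34 on TCPOBOP) and Slc22a7 (9.02 and 8.31, then 7.27 and 6.55). The groups did not overlap for either, yet the call of Slco1a1 held in 1 and that of Slc22a7 in 0 of the 4 fits that left out an array.

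**Figure D3:**
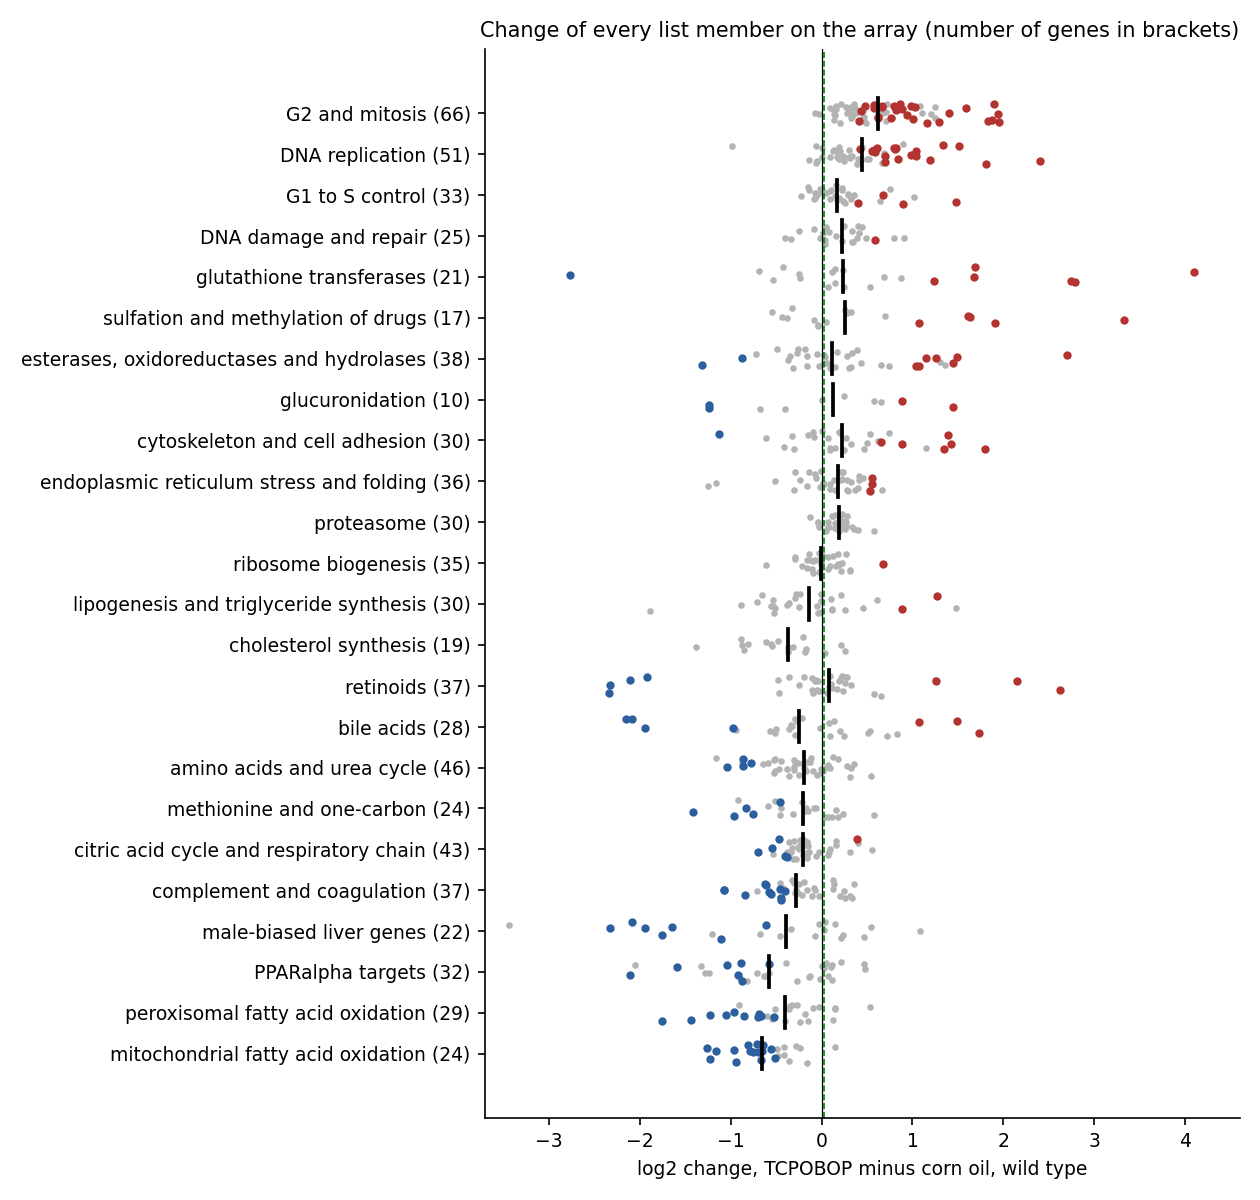
Log2 change in wild-type liver (horizontal axis) of every member on the array of 24 gene lists, with passing rises in red, passing falls in blue, other members in grey and a black bar at the median of each list. The green dashed line is the median of all 12393 genes at 0.03, and the cell division lists lie to its right and the fatty acid oxidation lists to its left.

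Of the genes of DNA replication and mitosis, 46 passed the test as higher in TCPOBOP livers and 0 as lower. Of 66 genes of G2 phase and mitosis on the array, 41 passed the filter, 9 of these only through the TCPOBOP arrays, and 27 rose. Without the filter 40 of the 66 rose, where 2.81% of all 12393 genes did. Their median change was 0.62, or 0.67 in mouse 1 and 0.57 in mouse 2, and 64 of the 66 changes were positive. Of 51 DNA replication genes 42 passed the filter, 4 of these only through the TCPOBOP arrays, and 19 rose. Without the filter 24 of the 51 rose. They had a median of 0.45 (0.39 and 0.58 in the 2 mice) and 46 positive changes, and 1 of them was called lower when fewer arrays entered the fit. Leaving out 1 array gave 18 to 22 mitotic and 10 to 18 replication genes, the fewest replication genes without TCPOBOP mouse 2 (10), corn oil mouse 1 (11) and corn oil mouse 2 (13), and the fewest mitotic genes without TCPOBOP mouse 1 or corn oil mouse 2 (18 each).

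The replicative helicase and the suppliers of deoxynucleotides led the replication list. Mcm6, a helicase subunit, went from 5.70 and 5.41 to 7.59 and 8.33 (log2 change 2.40, SE 0.23, limma adjusted p = 4.44e-06). Its partners Mcm5 and Mcm2 rose 2.52-fold and 2.28-fold. Rrm2, the regulated subunit of ribonucleotide reductase, lay at 4.78 and 4.70 on corn oil and at 6.49 and 6.60 on TCPOBOP and rose 3.50-fold. Pcna, the sliding clamp of the polymerases, was well above the dim limit on corn oil, at 8.22 and 8.08, and rose 2.06-fold to 9.01 and 9.37. Gmnn, or geminin, which blocks a second round of origin licensing, also rose 2.06-fold, but its call did not hold in all 4 fits. Tk1, thymidine kinase, rose 2.86-fold (adjusted p = 0.0188) but its call held in 0 of the 4 fits.

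Regulators and structural genes of mitosis both rose. Cdk1, the kinase that starts mitosis, went from 4.92 and 4.91 to 6.80 and 6.71, a 3.56-fold rise (SE 0.15, limma adjusted p = 5.81e-07), and its partner cyclin B2, Ccnb2, from 4.12 and 4.27 to 6.18 and 6.01. Mki67, the Ki-67 proliferation marker, lay at 3.47 and 3.25 and then at 5.08 and 5.39. Stmn1, which destabilises microtubules, rose 3.87-fold and Ube2c, the ubiquitin-conjugating enzyme of the anaphase-promoting complex, 3.01-fold. For each of these both TCPOBOP mice were above both controls. The probe set read for Top2a, a topoisomerase of dividing cells, stood apart in its list at 5.43 and 5.52 on corn oil and 5.54 and 5.26 on TCPOBOP. These values are near the dim limit, and whether the probe set follows the transcript was not tested.

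Genes that control entry into S phase gave fewer calls. Of 33 G1 to S genes 24 passed the filter and 4 rose: the kinase subunit Cks1b, the inhibitors Cdkn2c and Cdkn2d and the transcription factor E2f1, and 0 of these calls held in all 4 fits. Cyclin D1, Ccnd1, lay at 6.83 and 6.66 on corn oil and at 7.47 and 8.04 on TCPOBOP (log2 change 1.01, SE 0.33, limma adjusted p = 0.0842). Its groups did not overlap, but the change missed the threshold. Myc had a change of 0.64 (adjusted p = 0.0681) and Foxm1, a factor for mitotic genes, one of 0.35 (adjusted p = 0.0761). Ccne1 and Cdkn1a, which encodes the p21 inhibitor, had changes of -0.07 and 0.04. Among 25 DNA damage and repair genes Fanci alone rose, 1.50-fold, and 5 rose when dim genes were kept. Of 29 early growth genes 3 rose: Gadd45b, an early responder to CAR ligands, from 5.60 and 5.80 to 8.09 and 7.92 (4.95-fold), Dusp6, a phosphatase that dampens ERK, and Fosl2, called in 2 and 0 of the 4 fits.

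Promoters of the cell division genes hold 2 sequence elements that are long known for such genes, the CCAAT box and the CHR, and replication genes often hold E2F sites. Mouse promoters of RefSeq (build GRCm38.p6, reaching from upstream of a start to just past it) were found for 9887 of the 12393 genes and held 12566 windows. Each window was searched on both strands for TTTGAA (the CHR), for CCAAT, and for TTTCCCGC or TTTGGCGC (E2F). The motifs were searched separately, so matches may overlap. The upstream bases of 3 mitotic and 2 replication genes that rose are shown, 5' to 3' on the coding strand, with matches on either strand in capitals.
Cdk1 (chr10:69352913-69353022, minus strand): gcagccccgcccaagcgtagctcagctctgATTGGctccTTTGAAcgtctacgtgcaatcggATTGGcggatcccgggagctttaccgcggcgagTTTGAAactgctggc
Ube2c (chr2:164769819-164769928, plus strand): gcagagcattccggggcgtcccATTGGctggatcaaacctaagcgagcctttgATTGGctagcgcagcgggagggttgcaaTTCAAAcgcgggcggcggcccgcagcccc
Mki67 (chr7:135716380-135716579, minus strand): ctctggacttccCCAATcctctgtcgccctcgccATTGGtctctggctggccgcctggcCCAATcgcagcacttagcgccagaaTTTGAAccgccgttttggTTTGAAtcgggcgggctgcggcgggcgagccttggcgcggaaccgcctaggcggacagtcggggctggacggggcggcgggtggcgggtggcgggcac
Mcm6 (chr1:128359706-128359825, minus strand): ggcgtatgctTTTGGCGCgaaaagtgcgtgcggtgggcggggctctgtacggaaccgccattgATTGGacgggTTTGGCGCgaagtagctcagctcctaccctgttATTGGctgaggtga
Mcm5 (chr8:75109349-75109508, plus strand): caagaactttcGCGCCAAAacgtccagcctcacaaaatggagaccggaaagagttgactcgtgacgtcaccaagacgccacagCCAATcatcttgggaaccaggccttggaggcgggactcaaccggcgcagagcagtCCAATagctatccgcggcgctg
Cdk1 and Mki67 show 2 CHR matches each and Ube2c 1, each with a CCAAT box upstream of it, and Mcm6 and Mcm5 show E2F letters and CCAAT boxes. TTTGAA was in 63.8% of the 58 promoters of the mitotic list (37), in 17.3% of the 52 of the replication list (9) and in 12.9% of all promoters. It was in 13.5% of the 266 promoters of rises outside both lists and in 9.89% of the 273 of falls. CCAAT was in 75.9%, 55.8% and 37.1% of mitotic, replication and all promoters. The E2F letters were in 23.1% of replication promoters (12), 5.17% of mitotic ones (3) and 2.47% of all. The DR4, 1 form of the repeat that CAR and RXR bind (AGNTCA, 4 bases and AGNTCA again), was in 10 of all promoters, in 1 of 306 promoters of rises and in 0 of 273 of falls. A match is a string of letters and was not tested as a binding site.

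**Figure D4:**
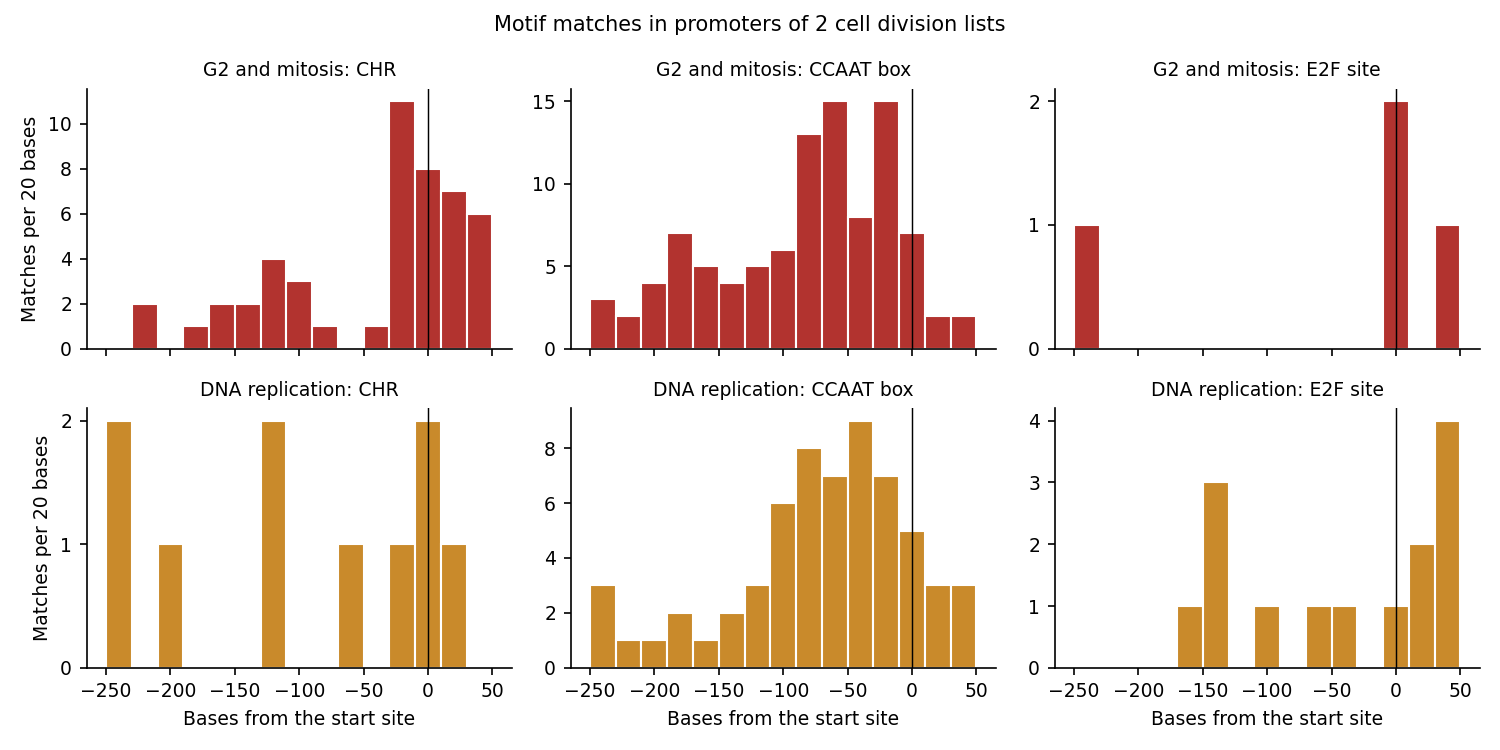
Number of motif matches per 20 bases (vertical axis) by distance from the start site (horizontal axis, bases) in promoters of the G2 and mitosis list and the DNA replication list, for the CHR, the CCAAT box and the E2F site. CHR letters are in 37 of 58 mitotic promoters and 9 of 52 replication promoters, and E2F letters in 3 and 12.

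The skeleton of the cell and its protein-folding machinery changed in part. Of 30 cytoskeleton and adhesion genes 6 rose and 1 fell. The tubulins Tubb2a (from 4.35 and 4.20 to 5.77 and 6.36), Tubb4b (from 6.99 and 7.03 to 8.23 and 8.59), Tuba8 and Tubb5 rose, as did the keratin Krt8 and the tropomyosin Tpm1. Leaving out 1 array gave 2 to 4 rises, the fewest without TCPOBOP mouse 2, and Krt8 was called in 0 of the 4 fits. Cldn2, a claudin of pericentral hepatocytes, fell by 1.12 on the log2 scale. Of 36 endoplasmic reticulum folding genes 3 rose. P4hb, a protein disulfide isomerase, went from 11.15 and 11.16 to 11.70 and 11.71, a small 1.47-fold rise that held in all 4 fits. The stress sensor Ern1 rose 1.45-fold, and the translocon subunit Sec61a1 rose 1.47-fold in the whole set of arrays but in 0 of the 4 fits. Hspa1b, an inducible HSP70, rose 2.53-fold. Of 30 proteasome genes 0 passed in limma and 9, all higher, had an unadjusted p below 0.05, and 26 of the 30 changes were positive, with a median of 0.19.

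Mitochondrial fatty acid oxidation held the most falls of any of the 53 lists. Of 24 genes, all of which passed the filter, 15 fell and 0 rose, where 2.8% of tested genes fell. The median change was -0.65 (-0.59 and -0.70 in the 2 mice) and 23 of 24 changes were negative. Without 1 array 8 to 12 fell: 8 without corn oil mouse 2, 9 without TCPOBOP mouse 2, 10 without TCPOBOP mouse 1 and 12 without corn oil mouse 1. The 8 fell in all 4 fits. Steps along the whole route were lower. At entry, Cpt1a, the rate-limiting carnitine palmitoyltransferase, went from 10.01 and 10.37 to 9.14 and 8.92, a 2.23-fold fall (SE 0.22, limma adjusted p = 0.00394). Its call did not hold in all 4 fits, and its log2 change ran from -1.34 to -0.98 over them. Hadha, of the trifunctional protein, went from 9.03 and 9.29 to 8.37 and 8.32 and fell 1.76-fold. Etfdh, which passes the electrons to ubiquinone, fell 2.35-fold and the isomerase Eci2 1.95-fold. At the end of the route, Acat1, which acts in ketone body metabolism, went from 9.64 and 9.85 to 8.51 and 8.46 and fell 2.40-fold (adjusted p = 0.00111). In each of these genes both TCPOBOP mice lay below both controls.

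Peroxisomal oxidation genes and targets of PPARalpha, the fatty acid receptor, showed the same direction. Of 29 peroxisomal genes 10 fell and 0 rose, with a median of -0.40 and 25 negative changes. The count was 6 without TCPOBOP mouse 2 or corn oil mouse 2 and 7 without either other array. Nudt7, which hydrolyses coenzyme A, went from 10.80 and 10.68 to 9.46 and 8.51 and fell 3.37-fold. Ech1, a dienoyl-CoA isomerase, went from 9.28 and 9.70 to 8.06 and 8.05 and fell 2.71-fold (limma adjusted p = 0.00249). Crot, which exports shortened acyl chains, fell 2.34-fold with a call in 0 of the 4 fits. Of 32 PPARalpha targets 7 fell and 0 rose (3 to 8 with 1 array left out, 3 without TCPOBOP mouse 2, 4 without TCPOBOP mouse 1 or corn oil mouse 2), with a median of -0.58. Retsat, a retinol saturase, went from 9.57 and 9.54 to 7.55 and 7.34, a 4.32-fold fall. Mgll, which splits monoglycerides, went from 9.19 and 9.30 to 7.89 and 7.44. The lipid droplet protein Plin5 went from 6.70 and 7.54 to 5.99 and 6.17. The call of Plin5 did not hold in all 4 fits, and its log2 change ran from -1.46 to -0.62 over them. The gene of the receptor, Ppara, lay at 8.67 and 8.79 on corn oil and at 7.46 and 7.43 on TCPOBOP. Its groups stood well apart, but the log2 change of -1.28 had an SE of 0.39 in the fit over all groups and missed the threshold (adjusted p = 0.0616).

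Lipid synthesis gave few calls. Of 30 lipogenic genes 2 rose and 0 fell: Insig2, a brake on SREBP processing, from 8.79 and 9.39 to 10.30 and 10.42, and the desaturase Fads1, called in 3 and 0 of the 4 fits. Of 19 cholesterol synthesis genes 0 passed in limma and 3, all lower, had an unadjusted p below 0.05, and 16 changes were negative with a median of -0.37. Of 21 lipoprotein genes 1 rose and 4 fell. Apoa4 rose 2.16-fold with a call in 0 of the 4 fits. The receptor Lrp1 went from 9.63 and 9.70 to 8.47 and 8.41 (a 2.33-fold fall, limma adjusted p = 0.000141), the HDL receptor Scarb1 fell 1.90-fold, and Saa4 and Lcat fell by 0.94 and 0.65 on the log2 scale. The 4 falls were 2 without corn oil mouse 2.

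Bile acid, retinoid and steroid genes changed in both directions. Cyp8b1, the sterol 12-hydroxylase that sets the share of cholic acid, went from 10.30 and 9.93 to 8.22 and 7.71. Cyp7b1, of the alternative pathway, went from 11.32 and 11.04 to 9.50 and 8.97. The groups did not overlap for either, but with SEs of 0.49 (limma adjusted p = 0.0134 and 0.0245) the calls held in 1 and 0 of the 4 fits. Cyp7a1, whose enzyme starts and limits the classical pathway, lay at 10.29 and 9.52 and then at 9.47 and 9.34 (adjusted p = 0.786). In the bile acid list 3 of 28 genes rose and 4 fell. Among the rises was the reductase Akr1d1, whose call did not hold in all 4 fits. Leaving out corn oil mouse 2 or TCPOBOP mouse 2 left 0 of the falls.

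Of 37 retinoid genes 3 rose and 4 fell. Cyp26a1, which degrades retinoic acid and is induced by it, went from 7.46 and 6.56 to 9.49 and 9.78, a 6.18-fold rise (limma adjusted p = 0.00303). Rarb, a retinoic acid receptor that is itself a retinoic acid target, went from 4.09 and 4.22 to 6.12 and 6.49, a 4.44-fold rise (adjusted p = 1.69e-06). The short-chain dehydrogenases Rdh16f2 (from 7.53 and 8.33 to 5.70 and 5.50), Rdh9 (from 6.57 and 7.23 to 4.48 and 4.66) and Rdh16 (from 6.77 and 6.16 to 4.58 and 4.51) fell 5.05-, 5.02- and 3.78-fold. Both TCPOBOP mice were below both controls for all 3, and the falls held with each array left out. These dehydrogenases are near copies of each other, and the array may read them in part together.

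Among steroid genes Serpina6, the corticosteroid-binding globulin, rose 3.18-fold with a call in 1 of the 4 fits, and the 17-beta dehydrogenase Hsd17b6 fell 3.24-fold with a call in 0 of the 4 fits. Another probe set of Hsd17b6 had a log2 change of -0.075. Of 16 steroid genes that passed the filter 1 did so only through the TCPOBOP arrays. Genes that are higher in male liver fell in 7 of 22 cases and rose in 0, with a median of -0.39. The lowest change among male-biased and among steroid genes was -3.44, of a member that was not called. The male-biased falls include Cyp7b1, Slco1a1, Nudt7, Egfr and Rdh9, which other lists also hold. They also include Susd4, a complement regulator, a 3.12-fold fall whose call did not hold in all 4 fits. Without TCPOBOP mouse 2 the count was 2 and without corn oil mouse 1 it was 3. On corn oil the male-biased list had a median level of 9.50 and the female-biased list one of 4.84. How these levels relate to the stated female sex was not tested. Of 25 female-biased genes 18 passed the filter, 1 of these only through the TCPOBOP arrays, and 2 rose. Among the 2 rises is that of Prom1, which encodes the membrane protein CD133 and also stands in the list of fetal and progenitor genes. Prom1 went from 3.95 and 4.24, dim on both corn oil arrays, to 8.13 and 7.81, a 14.7-fold rise (SE 0.27, limma adjusted p = 1.14e-07). Of the 22 genes of that fetal list 15 passed the filter, 1 of these only through the TCPOBOP arrays. The other member called was Krt8.

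Amino acid, one-carbon and energy metabolism held scattered falls. Of 24 methionine and one-carbon genes 5 fell and 0 rose. Bhmt, which remethylates homocysteine with betaine, lay at 11.96 in both controls and at 10.65 and 10.44 on TCPOBOP, a 2.67-fold fall (SE 0.16, limma adjusted p = 3.99e-05). The enzymes that take up its product path, Dmgdh and Sardh, fell 1.78-fold and 1.95-fold. Cbs, the first step of transsulfuration, fell 1.68-fold, but its call did not hold in all 4 fits. The 5 falls were 3 without TCPOBOP mouse 2 or corn oil mouse 1. Of 46 amino acid and urea cycle genes 4 fell and 0 rose, among them the glycolate oxidase Hao1 and the ornithine aminotransferase Oat, called in 1 and 0 of the 4 fits. The 4 falls were 2 without TCPOBOP mouse 1 and 0 without any other of the arrays. Of 29 glycogen and glycolysis genes 2 fell and 0 rose: Ppp1r3c, which targets a phosphatase to glycogen (from 7.05 and 8.18 to 5.51 and 5.45), and Ldha, lactate dehydrogenase A (from 11.30 and 11.77 to 10.32 and 10.34), called in 1 and 4 of the 4 fits. Of 22 gluconeogenesis genes 3 fell and 1 rose, but the falls were 0 without corn oil mouse 2 and 1 without TCPOBOP mouse 2 or corn oil mouse 1, and the rise was kept only without corn oil mouse 2. Fbp1, fructose bisphosphatase, fell 1.67-fold with a call in 1 of the 4 fits and a log2 change of -1.01 to -0.47 over them, whereas Pck1, the rate-limiting carboxykinase, had a change of -0.37 (adjusted p = 0.803). Of 43 citric acid cycle and respiratory chain genes 5 fell and 1 rose, with a list median of -0.21. Without TCPOBOP mouse 2 there were 2 falls and without any other of the arrays 3, and 0 to 1 rose in these fits. Ogdh fell 1.62-fold in all 4 fits and Sdha 1.38-fold in 2 of them.

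Some secreted liver proteins and growth signals were lower. Of 37 complement and coagulation genes, all of which passed the filter, 11 fell and 0 rose, with a median of -0.28. Mbl1, a mannose-binding lectin, went from 9.88 and 10.01 to 8.85 and 8.89, a 2.11-fold fall, and prothrombin, F2, from 11.22 and 11.29 to 10.82 and 10.77, a 1.37-fold fall with an SE of 0.08 (limma adjusted p = 0.00177). C9, of the membrane attack complex, fell 1.79-fold. Without 1 array 3 to 5 were called: 3 without TCPOBOP mouse 2, 4 without TCPOBOP mouse 1 and 5 without either corn oil mouse. The same list had a median of -0.20 in knockout liver. Of 32 acute phase genes 3 fell and 0 rose, with a median of -0.22, against -0.36 in knockout liver. Those falls were 0 without corn oil mouse 2, 1 without either TCPOBOP mouse and 2 without corn oil mouse 1. Of 28 growth factor genes 4 fell and 0 rose. Egfr, the EGF receptor, went from 10.34 in both controls to 9.27 and 9.20 (a 2.15-fold fall, adjusted p = 0.000507), and Igf1 from 10.51 and 10.46 to 9.90 and 9.79 (1.55-fold, adjusted p = 0.00117). The other 2 falls were those of Inhbc, an activin subunit, and Igfbp4. Other probe sets of Egfr had log2 changes of -1.87, -1.61, -0.23 and 0.17, so the size of its fall depends on the probe set.

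Pericentral genes, which are active near the central vein, changed in both directions. Of 25 pericentral and Wnt genes 24 were tested, 3 rose, among them Lect2 (2.56-fold), and 6 fell, among them Gulo (2.25-fold) and the glutamate carrier Slc1a2 (2.22-fold). The 6 falls were 2 without TCPOBOP mouse 2 or corn oil mouse 1, 3 without TCPOBOP mouse 1 and 4 without corn oil mouse 2, and Gulo was called in 1 of these fits. Of 54 nuclear receptors and liver transcription factors 47 were tested. Rarb rose, and Nr2f6 and Cebpa fell by 0.66 and 0.55 on the log2 scale, with calls in 0 and 1 of the 4 fits. Over all genes tested 3.34% rose and 2.8% fell, so these few calls are no result about the list. Of 22 clock genes 0 passed in limma and 1 had an unadjusted p below 0.05, and for the 28 interferon genes the counts were 0 and 3. Of 30 chemokine and cytokine genes 21 were tested, 1 rose and 1 fell, again too few to be a result about the list. The chemokine Ccl9 went from 8.03 and 8.21 to 10.91 and 10.97, a 7.08-fold rise (adjusted p = 2.34e-05). Cxcl1, a neutrophil attractant, went from 9.04 and 10.24 to 5.29 and 5.14, the largest fall among the 257 passing genes, yet its SE was 1.14, its adjusted p 0.0279, and its call held in 0 of the 4 fits. Its change in knockout liver was -4.06.

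Of the called genes 357 (198 rises and 159 falls) were in none of the 53 lists. They include Fhit, a hydrolase of diadenosine triphosphate, which lay at 5.49 and 5.58 on corn oil and at 8.05 in both TCPOBOP mice (5.73-fold). Mical1, an oxidoreductase that takes actin filaments apart, rose from 4.33 and 3.77 to 6.34 and 6.62 (5.40-fold). Adssl1, an adenylosuccinate synthase, rose from 6.45 and 5.81 to 8.44 and 8.64 (5.31-fold). Among the falls, the leukotriene hydroxylase Cyp4f14 went from 9.44 and 9.18 to 7.97 and 7.46 (3.02-fold). The interleukin-1 co-receptor Il1rap went from 8.19 and 7.92 to 6.60 and 6.42 (2.92-fold). Other probe sets of Il1rap had log2 changes of -0.14 and, at a dim level, 0.21, so its fall rests on 1 probe set.

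Markers of other liver cells gave 1 call in wild type. Of 13 Kupffer cell markers 12 passed the filter, and their mean ran from 7.27 to 7.76 on corn oil and from 7.24 to 7.55 on TCPOBOP, with 0 called in limma and 0 at an unadjusted p below 0.05. Endothelial markers averaged 6.59 to 6.60 and then 6.33 to 6.54, and stellate cell markers 6.23 to 6.29 and then 6.28 to 6.31, again with 0 called, and with 2 and 0 at an unadjusted p below 0.05. Lymphocyte markers averaged 5.11 to 5.25 and 5.26 to 5.30, and neutrophil markers 5.41 to 5.49 and 5.60 to 5.69, with Mpo, from 4.86 and 4.59 to 5.30 and 5.20, as the only call. Bile duct markers were mostly dim, with 2 of 7 past the filter, and 3 of 6 red cell markers passed it. The hepatocyte markers Asgr1 and Asgr2, subunits of the asialoglycoprotein receptor, fell 1.40-fold and 1.66-fold, and 0 and 2 of the 4 fits called them. What part these shifts have in the results above was not tested.

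The same treatment in mice without CAR gave 7 calls, 0.0764% of the genes tested, with 1047 at an unadjusted p below 0.05. The 306 genes that rose in wild type had a median change of -0.01 in knockout liver and the 257 that fell one of -0.08. Only Cyp2c29 and Mbl1 were called in both genotypes, in the same direction: 1.50 and 1.05 for this P450, -1.08 and -0.84 for the lectin. The difference between the changes of the 2 genotypes passed for 179 genes, 1.95% of those tested. Of these 162 were called in wild type, 109 as rises and 53 as falls. The wild-type change is part of the difference, so this overlap is a description and not support. For the other called genes a difference was not shown, which is not evidence of an equal change. Leaving out 1 array of the 8 gave 91 to 147 differences: 91 without knockout corn oil mouse 1, and 109, 117 and 118 without wild-type TCPOBOP mouse 2, wild-type corn oil mouse 2 and knockout TCPOBOP mouse 1.

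**Figure D5:**
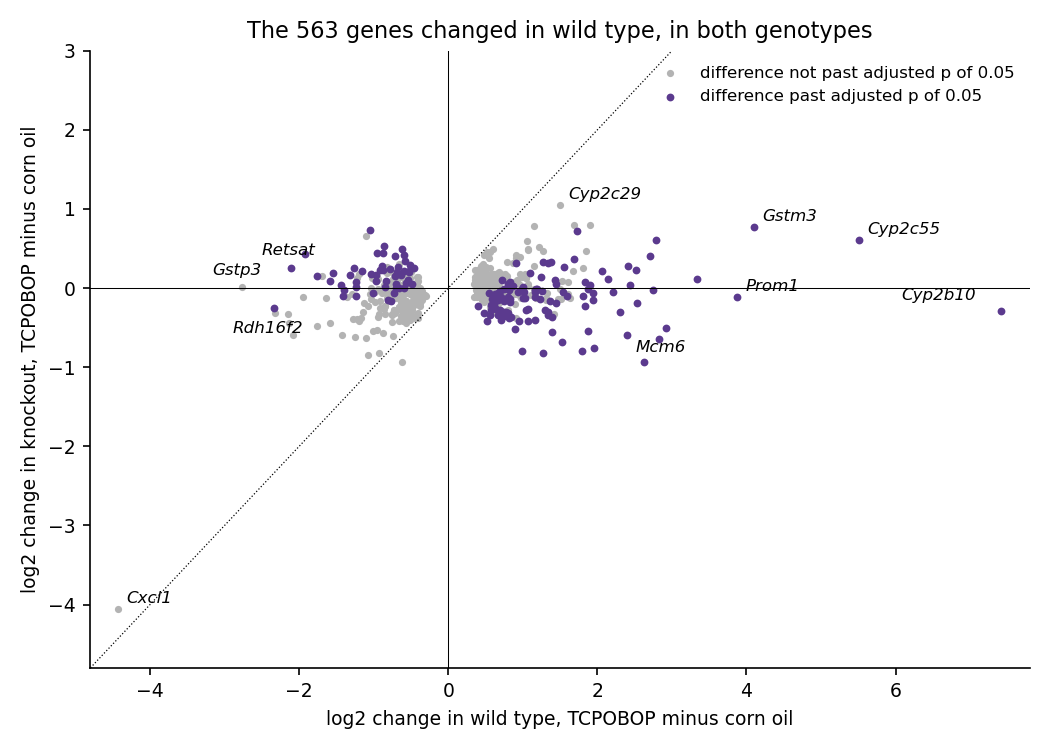
Log2 change after TCPOBOP in knockout liver (vertical axis) against that in wild-type liver (horizontal axis) for the 563 genes called in wild type, with genes whose difference between genotypes passed in purple and a dotted line of equal change. Points lie along a band near 0 on the vertical axis, where the medians are -0.01 for rises and -0.08 for falls.

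Differences from knockout are given for the groups with the most calls. Among cell division genes they passed for 18 of the 66 mitotic and 10 of the 51 replication genes, all higher in wild type. Stmn1 had a change of 1.95 in wild type and -0.76 in knockout (difference 2.71, limma adjusted p = 8.76e-06), and Mcm6 of 2.40 and -0.60. The list medians were -0.01 and -0.06 in knockout. For mitochondrial fatty acid oxidation 9 of 24 genes differed, all lower in wild type, and the knockout median was 0.11. For complement and coagulation genes, with 11 falls in wild type, 0 differences passed in limma. Acat1 had changes of -1.26 and 0.25 (difference -1.52, adjusted p = 0.00891), and Cpt1a of -1.16 and 0.22. Ppara, which missed the threshold within wild type, differed between the genotypes, with -1.28 against 0.93 (adjusted p = 0.0469). Prom1, Ccl9 and Cyp26a1 differed by 3.99, 3.46 and 3.56. By contrast Egfr (-1.10 and -0.63, adjusted p of the difference 0.46), Cyp8b1 (-2.15 and -0.32, adjusted p = 0.256) and Gstp3 (-2.77 and 0.01, adjusted p = 0.138) did not pass. For Egfr this holds for the 1 probe set tested. Kupffer cell markers averaged 7.75 to 7.91 on the knockout corn oil arrays and 6.68 to 7.20 on the knockout TCPOBOP arrays, with a list median of -0.96 and Marco called. The part of that drop in the differences was not tested.

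In mice with human CAR instead of mouse CAR 0 genes passed after TCPOBOP in limma (smallest adjusted p 0.411), with 610 at an unadjusted p below 0.05. The wild-type rises had a median change of 0.04 there and the falls one of -0.03. By the limma test of the difference, at an adjusted p below 0.05, the change in wild type exceeded that in human CAR mice for 108 of the rises. It was further down for 54 of the falls. Over all 9167 genes tested 1049 had an unadjusted p below 0.05 for this difference. The rises and falls were picked by the wild-type change, which is part of the difference, so the 108 and 54 are a description and not support. For 261 rises (85.3%) both wild-type TCPOBOP arrays lay above all 8 corn oil and TCPOBOP arrays of the other genotypes, against 9.93% of all genes tested. For the falls it was 225 below all 8, against 12.0%. The rises and falls were picked by these same wild-type TCPOBOP arrays, which favours such a gap. The shares are thus a description and not support.

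Phenobarbital in wild-type mice, which activates CAR without binding as TCPOBOP does, was set against the same corn oil arrays, so the 2 sets of changes share their controls and are given side by side with no test of the difference. It gave 135 calls, 1.47% of genes tested. Changes for TCPOBOP and phenobarbital were 7.42 and 7.03 for Cyp2b10, 2.75 and 1.87 for Gstm2, 2.70 and 2.19 for Ces2a, 2.15 and 1.99 for Rarb, and 2.31 and 2.16 for Gadd45b, and all of these passed under both ligands. Values for cell division genes follow. Birc5 had 1.94 and 0.12, Mcm6 2.40 and -0.05, Pcna 1.04 and 0.03, and Cdk1 1.83 and 0.70, of which under phenobarbital only Cdk1 passed (limma adjusted p = 0.0232). The mitotic list had medians of 0.62 and 0.12 and the replication list of 0.45 and 0.10. For mitochondrial fatty acid oxidation the medians were -0.65 and -0.20, and Acat1 had -1.26 and -0.60. In some other lists the phenobarbital median was of the same size or larger. The medians were 0.23 and 0.55 for glutathione transferases and 0.54 and 0.54 for drug-metabolising P450s. For cholesterol synthesis they were -0.37 and -0.52, and for acute phase genes -0.22 and -0.41. The 2 ligands were given on different schedules, 1 dose on the first day against a dose each day.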

How the data were processed

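Total RNA of 24 livers was labelled with biotin and hybridised to 1 array each, per the labels' protocols. The deposited values are log2 expression of 22690 probe sets, made by the authors with RMA (R 2.15.0), per the submitters' processing notes, which equalises the arrays and compresses low levels. They were used as deposited, with no further normalisation. With the platform annotation, 20380 probe sets had 1 gene symbol, 691 several and 1555 none listed, besides 64 controls. Each of 12393 genes was read by its probe set of highest mean, and the test took the 9167 genes that were above an array's 40th percentile on 2 or more arrays. A model of 12 group means was fitted in limma 3.58.1 under R 4.3.3 to every array, and p-values were adjusted by Benjamini-Hochberg within a comparison, with calls at an adjusted p below 0.05. Two-sided moderated tests were used throughout.

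The members and gene lists were chosen with earlier results of these data known. Named are Nr1i3, Cyp2b10, Cyp2c55, Gstm3, Birc5, Cyp3a11, Cyp7a1, Pck1, Myc, Ccnd1 and Gadd45b, the 30 largest rises and 20 largest falls that passed, and up to 6 passing members of each list in each direction, of which the text gives a part. Members that did not pass are named for their role, and some passing members were picked out after their values were seen. Of 421 other probe sets of 268 called genes 51 had the opposite sign, and 64 calls rest on probe sets whose type (_s_at or _x_at) can match several transcripts, 24 of them of the less specific type _x_at. Over 276 pairs of arrays at most 0.0485% of values were equal, so none looks like a copy of another. The steps were tested on simulated data. Settings varied were the scaling (cyclic loess), the dim filter, averaging a gene's probe sets, the variance model, weights per array, a replicate block, and the arrays that enter. The labels name no hybridisation batch. Summaries used Python 3.11.15 with pandas 2.3.3 and numpy 2.4.6, and plots matplotlib 3.10.9.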

Additional observations from a re-analysis of the deposited data

Results flagged for a closer look

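The TCPOBOP change differed between wild-type and knockout liver for 179 genes by the test of the difference itself in limma. Of the genes covered by the rule for names 108 were among them. Given here, as the wild-type minus the knockout log2 change, are the 10 largest differences in each direction and others whose values the report sets side by side. Rises that were larger in wild type were those of Cyp2b10 (7.71), Cyp2c55 (4.91), Prom1 (3.99), Cyp26a1 (3.56), Ccl9 (3.46), D17H6S56E-5 (3.42), Gstm3 (3.33), Sult1e1 (3.21), Mcm6 (3.00), Stmn1 (2.71), Gstm2 (2.78), Gadd45b (2.61) and Birc5 (2.09). Falls that were deeper in wild type were those of Retsat (-2.37), Rdh16 (-2.35), Rdh16f2 (-2.09), Nudt7 (-1.90), Acaa1b (-1.78), Acat1 (-1.52) and Cpt1a (-1.38).

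For 17 genes the difference passed although the change within wild type did not, and 5 of them are named. The fatty acid hydroxylase gene Cyp4a12a, also in the male-biased list, differed by -2.56, with a change of 0.47 in wild type and 3.03 in knockout. On corn oil it lay at 7.53 and 7.63 in knockout, against 10.57 and 10.10 in wild type, so its controls differed between the genotypes. The acyl-CoA thioesterase gene Acot1 differed by -2.28 (-1.24 and 1.04), Ppara by -2.22 (-1.28 and 0.93), Hamp2, a hepcidin gene, by -2.24 (-0.66 and 1.58) and Gys2, the liver glycogen synthase gene, by -1.94 (-0.80 and 1.14). Kupffer cell markers fell in knockout liver alongside these differences, with a median of -0.96, and their part was not tested.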

How the results depend on the processing

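The 247 named genes that were called kept their direction under every setting run. For named genes that were not called a change of sign was not counted. Of 3493 values of the 252 named genes under an alternative 3007 were counted as unchanged. A further 478 lost the call, 8 gained it and 0 of the called ones reversed. Of 247 named genes that were called, 110 kept the call with any 1 of the 4 arrays left out. The 563 calls in wild type became 884 without the 2 phenobarbital arrays that stand apart from the rest, neither of which is compared here, 1065 with only wild-type arrays in the fit, and 148 at a log2 change of at least 1; leaving out 1 array gave 265 to 315. The higher genes were 54.35% of calls in the main setting and 44.88% with only wild-type arrays. The 7 calls in knockout became 12 with cyclic loess, 207 with array weights, 23 without the 2 arrays, 2 with only knockout arrays, 76 with only the groups compared, and 2 to 4 with 1 array left out. The 179 differences became 409 with array weights, 324 without the 2 arrays, 284 with only those genotypes, 405 with only the groups compared, 117 at a size of at least 1, and 91 to 147 with 1 array left out. The cause of these shifts was not tested.

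Replicate numbers are not stated to pair mice. Deviations of same-numbered wild-type mice had a correlation of 0.226, and 17 of 66 pairs of groups lay above 0.1, so the numbers were not taken as pairs; with the replicate number as a block the counts were 592, 12 and 187. With 2 mice a group, genes near the dim limit and changes much under 2-fold are the least secure.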

Other observations

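3 gene groups were gathered after the values had been seen, so their counts are a description only. Genes for passing proteins into and out of the endoplasmic reticulum rose in 8 of 40 cases and fell in 0, with a median change of 0.27 in wild type and -0.20 in knockout. Sar1b, a small GTPase that starts transport carriers, went from 9.38 and 9.57 to 10.27 and 10.51 (1.88-fold, limma adjusted p = 0.00252), and Ssr4, a subunit of the translocon-associated complex, from 8.97 and 9.08 to 9.75 and 9.80 (1.68-fold, adjusted p = 0.00459). Ssr1, Tram1, Stt3b, Sec11c, Tmed3 and Sec61a1 were the others. Leaving out 1 array left 1 to 4 of these rises.

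Of 22 sphingolipid genes 7 rose and 2 fell, with a median of 0.12. Sgpl1, the lyase that ends sphingosine-1-phosphate, went from 6.60 and 6.51 to 8.06 and 8.11 (2.89-fold, limma adjusted p = 0.000838), and its knockout change was -0.69. The sphingomyelinases Smpd2 (from 7.90 and 8.02 to 9.10 and 9.18) and Smpd3 (from 5.30 and 5.26 to 5.94 and 6.21) rose 2.27-fold and 1.74-fold. The related Smpdl3a and the phosphatase Sgpp1 fell by 0.71 and 0.40 on the log2 scale. Other probe sets of Sgpp1 had log2 changes of 0.026 and, at a dim level, -0.10.

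Of 42 cytosolic ribosomal protein genes 11 rose and 0 fell, 41 of 42 changes were positive, and the wild-type median was 0.25, against -0.04 for knockout and -0.14 for human CAR livers. By comparison 1 of 35 ribosome biogenesis genes rose, Nhp2, with a list median of 0.00. With 1 array left out 3 to 4 were called, and 2 in every such fit.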
